A study of Homo sapiens with 8 samples.

Results

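The 3′ untranslated region (3′ UTR) is the stretch of an mRNA between the stop codon and the poly(A) tail. The regions described here are the m6A peaks that the authors' deposited table placed in that segment. They are all peaks whose segment entry in a treatment reads UTR3, taken with their transcript position, exon and score. There were 7614 of them among 37501 listed peaks, in 2452 of 25918 gene models. All 2452 were models of coding transcripts. Peaks of 1 gene model that lay within 100 nt of each other, in the same or in another treatment, were joined into a site, which gave 3681 3′ UTR sites among 17764.

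The cells are labelled HepG2, a human line derived from a liver carcinoma, and no untreated culture was analysed here. UV cultures received 0.04 J per square centimetre and 4 h of recovery, and heat shock cultures 30 min at 43 degrees, where the same recovery may also apply. HGF cultures received hepatocyte growth factor, the ligand of the MET receptor, overnight at 10 ng/ml, and IFNg cultures received interferon gamma overnight at 200 ng/ml. Each treatment had 1 antibody library and 1 input library made from poly(A)-selected RNA cut to about 100 nt, so no difference between treatments has a replicate check and none carries a p-value. Sequencing depth is unknown, so that the absence of a site from a treatment's list does not show that it was unmethylated. Expression is known only as the gene model's percentile within its treatment. The table does not say whether that percentile was taken from the antibody or the input library, which limits every statement on rank or percentile of expression below.

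The label was checked against 11 hepatocyte markers, among them albumin (ALB) and the fibrinogen chain FGB. They ranked between percentiles 18.4 and 76.1 over the 4 treatments, and FGB and APOA2 lay at the lowest rank listed in every treatment. That lowest rank was 45.5 under UV, 32.7 under heat shock, 20.4 under HGF and 18.4 under IFNg. Percentiles near it are therefore not comparable between treatments. The data therefore go against a hepatocyte-like expression pattern, and the cells are called here only by their label. The 4 blood cell markers ranked between 18.4 and 60.9, and the 4 fibroblast and endothelial markers between 28.8 and 83.6. How these ranks bear on the peaks was not tested.

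N6-methyladenosine (m6A) is added to adenosines of nascent mRNA by a nuclear complex built around METTL3 and METTL14, usually within a short core whose central bases are G, A and C. It is found mainly in long internal exons, around stop codons and in 3′ UTRs. There it can be bound by reader proteins of the YTH family, which act on the decay, translation and processing of the mRNA, and the 3′ UTR also carries binding sites of microRNAs and of other RNA-binding proteins.

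The sequences at the strongest 3′ UTR sites are shown first, since they let the peak positions be read against that core. Gene models were matched to GENCODE 29 transcripts of identical structure, which succeeded for 225 of the 2452 models. Among the 55 matched sites that were listed in all 4 treatments, the 8 whose lowest score rank over the treatments was highest were taken, a score rank being a site's percentile by score within a treatment among sites listed in all 4. The core nearest to the peak position, within 50 nt, is printed with 10 bases on each side. The peak position of a site is here the median of its positions over the treatments that listed it. Of the 8 sites, 5 held GGAC, and where it was missing the variants AGACT and GAACT were searched, all on the transcribed strand. Capitals mark GGAC with its next base, or the variant. Coordinates and bases are from the GRCh38 build with GENCODE 29.
PAK2, chr3:196830469-196830493, plus strand: cgagatgagaAGACTgtgatcctca
VANGL1, chr1:115691591-115691615, plus strand: tttgtcgatgGGACTtctcaagaag
RNF169, chr11:74842224-74842248, plus strand: caaagacagaGGACTtggaccaggg
FAM13A, chr4:88728055-88728079, minus strand: tgctctccttGGACCcagttaactg
RIMKLB, chr12:8776820-8776844, plus strand: gcacattatcAGACTttgagaacat
FBXL19, chr16:30948121-30948145, plus strand: cgcccatttgGGACTgcgccacccc
HRH1, chr3:11260920-11260944, plus strand: gaattgaaaaGGACTcttgagccct

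All of these lie in the last exon. The site of RNF169, a ubiquitin ligase homologue of the DNA damage response, had its core 4 nt from the peak position, in exon 6, 5502 nt past the coding end. In the planar polarity gene VANGL1 the core lay 27 nt upstream of that median position, which was 251 nt past the coding end in a 3′ UTR of 6845 nt. Its peaks were listed at 2049 under UV, 2039 under heat shock, 2147 under HGF and 2145 under IFNg. None lay at the median of 2097, so these distances hold for no single treatment. In HRH1, the histamine receptor, the core was 49 nt downstream. USP22, a deubiquitinase of the SAGA complex, had a site in all 4 treatments 336 nt past the coding end, and none of the searched cores lay within 50 nt of it.

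A second set shows sites of genes that are described below for their role or for the treatment that listed them.
SLC2A1, chr1:42926627-42926651, minus strand: tatgtcctaaGGACAcactaatcga
USP7, chr16:8893344-8893368, minus strand: aatacagtccGGACAgacattgtgg
CIITA, chr16:10924673-10924697, plus strand: tttgtctatgGGACTcaatgcactg
PDCD6, chr5:314861-314885, plus strand: aaataacatgGAACTtacacaaaag

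The site of SLC2A1, the glucose transporter GLUT1, was listed under heat shock, HGF and IFNg. USP7, the deubiquitinase that acts on MDM2 and p53, was listed under UV and heat shock. CIITA, the regulator of MHC class II genes, and PDCD6, a calcium-binding protein, were listed under IFNg alone. RBM15, a subunit of the m6A writer complex itself, had a site 201 nt past its coding end under HGF alone, with none of the cores within 50 nt.

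The 3′ UTR peaks were spread over many genes, mostly with a single peak each. The treatments listed 2775 peaks under UV, 1971 under heat shock, 1813 under HGF and 1055 under IFNg. Of the peaks with a segment, these made 21.4% under UV (20.7 to 22.2), 20.6% under heat shock (19.8 to 21.4), 20.5% under HGF (19.6 to 21.3) and 20.4% under IFNg (19.3 to 21.6). They lay in 2031, 1513, 1452 and 874 gene models. Of 19965 coding gene models, 10.2% had at least 1 such peak under UV, 7.58% under heat shock, 7.27% under HGF and 4.38% under IFNg. Over all treatments together the share was 12.3%. Among the 4348 coding models at the 75th percentile or above in every treatment it was 26.0% in any treatment, and 20.4%, 16.6%, 16.1% and 11.0% in the single ones. The order of the treatments in these counts was that of their total number of listed peaks, which can follow depth.

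A single 3′ UTR peak was found in 74.6% of the models with one under UV, in 78.3% under heat shock, in 81.4% under HGF and in 84.1% under IFNg. A peak around the stop codon was also listed for 38.4% of these models under UV (95% interval 36.3 to 40.6), 34.3% under heat shock (31.9 to 36.8), 30.6% under HGF (28.3 to 33.1) and 21.6% under IFNg (18.9 to 24.5). Models with a coding peak allow a comparison. Where they also had a 3′ UTR peak, a stop codon peak was listed in 40.6% under UV (36.6 to 44.6, 599 models), 36.8% under heat shock (32.1 to 41.8), 32.8% under HGF (27.8 to 38.1) and 29.2% under IFNg (21.9 to 37.3, 144 models). Where they had none, the shares were 33.4% (31.5 to 35.3), 27.0% (25.05 to 28.98), 26.3% (24.5 to 28.3) and 19.3% (17.4 to 21.4) in that order. The share was higher beside a 3′ UTR peak under UV, heat shock and IFNg, with intervals that do not overlap, while those of HGF overlap. Under IFNg, 66.7% of the models with a 3′ UTR peak had neither a stop codon nor a coding peak, against 44.1% under UV. IFNg listed 5165 peaks with a segment and UV 12945, and the share with a further peak can follow that number. Whether it did was not tested. All intervals are exact binomial ones and cover counting error only.

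The share of models with a 3′ UTR peak depended on rank. Below the 60th percentile, 2.29% of coding models had one under UV and 0.358% under IFNg. Between the 75th and the 90th percentile the shares were 20.1% under UV (18.8 to 21.4), 16.1% under heat shock (14.9 to 17.3), 15.4% under HGF (14.2 to 16.6) and 10.1% under IFNg (9.12 to 11.1). At the 90th percentile and above they were 16.9% (15.4 to 18.4) under UV and 12.4% (11.1 to 13.8) under heat shock, but 15.1% (13.7 to 16.5) under HGF and 11.9% (10.7 to 13.3) under IFNg. The most highly ranked models thus had a smaller share than the next class under UV and heat shock, with intervals that do not overlap, while under HGF and IFNg the intervals of these classes overlap.

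The exons were long. The median length of the exon that held a 3′ UTR peak was 2206 nt, against 1563 nt for peaks around the stop codon and 1364 nt for coding peaks. Exons of 1000 nt or more held 86.3% of 3′ UTR peaks, 68.6% of stop codon peaks and 60.2% of coding peaks. The medians differed little between treatments, at 2175 nt under UV, 2208 nt under heat shock, 2218 nt under HGF and 2276 nt under IFNg. Only 3.62% of 3′ UTR peaks lay in the first exon of their model, against 11.9% of coding peaks. In matched models every 3′ UTR peak, 640 of 640, lay in the last exon. Last exons without a peak were not measured. The greater exon length therefore cannot be told apart from the place of the segment in the transcript.

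Longer exons held more sites, though not more widely shared ones. Models whose site-bearing exon was under 1000 nt had 1.09 3′ UTR sites each, models of 1000 to under 2000 nt 1.35, models of 2000 to under 4000 nt 1.65, and models of 4000 nt and above 2.10. The share of sites listed in all 4 treatments was 19.6% (16.2 to 23.3) in the shortest class and 17.3% (14.5 to 20.3) in the longest. Among recognised symbols, the longest exon belonged to SH3TC2, a gene of peripheral nerve myelination, with 22753 nt. Its site was listed under UV (score 4.87) and HGF (5.60). The scaffold protein AHNAK followed, with an exon of 18173 nt and a site under heat shock alone at a score of 2.27. AAK1, a kinase of clathrin-mediated uptake, had an exon of 17969 nt and 4 sites. Its best shared site scored 6.09 under UV, 5.89 under heat shock, 4.42 under HGF and 4.74 under IFNg.

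Most of the models had 1 site (1675 models), 501 had 2, and 1 model reached 9. That was TMEM127, a tumour suppressor that restrains mTOR signalling, with 9 sites in an exon of 3542 nt. Of these, 1 was listed in all 4 treatments, scoring 3.79 under UV, 3.23 under heat shock, 3.83 under HGF and 2.91 under IFNg. Another 4 were listed in 1 treatment only with scores between 2.17 and 2.54, and a further single-treatment site scored 2.70 under heat shock. ONECUT2, a liver and endocrine transcription factor, had 8 sites spread over an exon of 14862 nt. Its site at transcript positions 3137 to 3155 scored 7.66 under UV, 5.72 under heat shock, 5.52 under HGF and 4.28 under IFNg. No other ONECUT2 site exceeded 4.24 in any treatment. The forkhead factor FOXK1 had 7 sites, and 2 of them were listed in all 4 treatments, the one at positions 2686 to 2692 with 6.45 under UV and 3.56 under IFNg and the one at 7117 to 7144 with 6.22 and 3.89. TMEM184A, a transmembrane protein, had 7 sites and none in all 4 treatments. Another 11 models had 6 sites. Of these the retrotransposon-derived imprinted gene PEG10, which is named again below for a site under heat shock alone, was chosen after its values were seen. The strongest PEG10 site under heat shock, at 5.79 and position 3082, was listed in no other treatment. Its nearest neighbour, at positions 3338 to 3349, scored 2.62 under heat shock, 4.09 under HGF and 4.18 under IFNg. A more distant site at positions 4041 to 4050 scored 6.39 under UV, 5.46 under heat shock, 4.88 under HGF and 3.76 under IFNg.

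Neighbouring 3′ UTR peaks of 1 model stood a median of 507 nt apart under UV, 474.5 nt under heat shock, 506 nt under HGF and 460 nt under IFNg.

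Within the 3′ UTR the sites lay towards the stop codon. In the matched models the smallest distance of a 3′ UTR peak past the coding end was 200 nt, and 833 of 848 stop codon peaks lay within 200 nt of it, so the authors' segment begins where the stop codon window ends. The 313 matched sites lay a median of 562 nt past the coding end (quartiles 312 and 1071 nt), in 3′ UTRs with a median length of 1892 nt. Per kb of 3′ UTR in all matched models with a listed peak, there were 0.898 sites at 200 to 400 nt past the coding end, 0.576 at 400 to 600 nt, 0.386 at 600 to 800 nt and 0.249 at 1000 to 1500 nt. Beyond 1500 nt the density was between 0.109 and 0.138 sites per kb, where it no longer fell in order. Sites listed in all 4 treatments had 0.218 per kb in the nearest class and rest on 25 sites there, and on 1 or 2 sites in each class beyond 1500 nt.

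**Figure D1:**
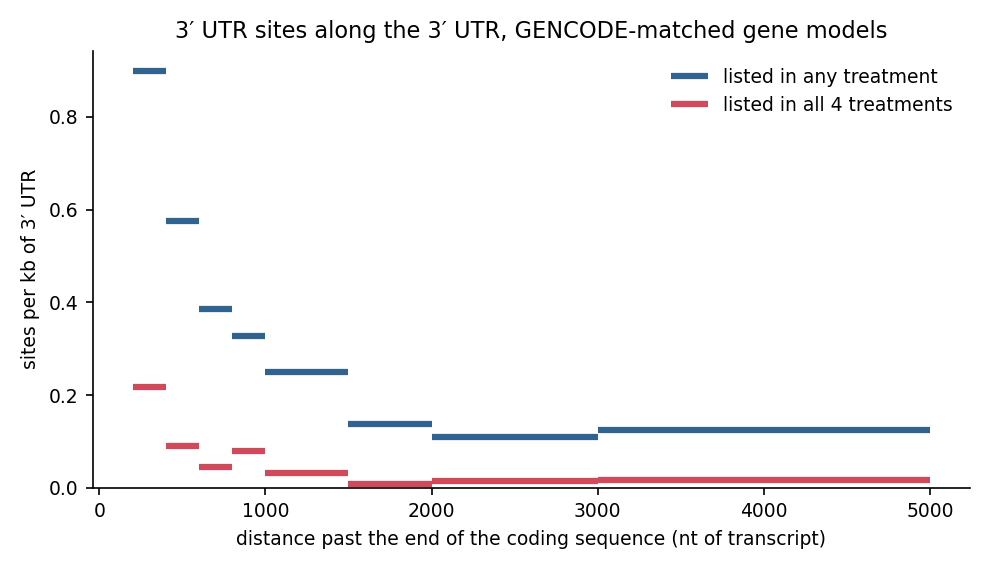
Density of 3′ UTR m6A sites (vertical axis, sites per kb of 3′ UTR) against the distance past the end of the coding sequence (horizontal axis, nt of transcript) in all GENCODE-matched gene models with a listed peak. Each horizontal bar spans a distance class; blue bars are sites listed in any treatment, falling to 0.138 per kb at 1500 to 2000 nt, against 0.898 per kb at 200 to 400 nt, and red bars are sites listed in all 4 treatments.

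As a share of the 3′ UTR length, the median position of sites in all 4 treatments was earlier than that of sites in fewer. The 55 matched sites in all 4 treatments stood at a median of 27.6% of the 3′ UTR length (quartiles 14.2 and 51.2%), and the 130 sites of 1 treatment at 43.4% (22.8 and 65.9%). Their quartile ranges overlap, and their medians past the coding end were 442 and 595 nt. Sites in 2 and in 3 treatments stood at 45.8% and 43.3%, and at 640 and 422 nt, so no steady trend with sharing was seen. The 3′ UTRs had a median of 2374 nt for sites in all 4 treatments and 1870.5 nt for those of 1. Whether this length underlies the lower percentage was not tested. Matched sites were like the remainder in exon length (median 2245 against 2187 nt) and in the share listed in all 4 treatments (17.6 against 17.3%). Their median score was 4.40 under UV, 3.79 under heat shock and 3.63 under HGF, against 4.00, 3.65 and 3.34 for sites without a match. Under IFNg it was lower, at 3.01 against 3.14.

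The m6A cores occurred more often near the peaks than over the same 3′ UTRs taken as a whole. In windows of 101 nt centred on the 313 matched sites, GGACT occurred in 28.8% (23.8 to 34.1), against 9.08% of all windows of that length in the same 3′ UTRs. The latter were centred from 200 nt past the coding end to 50 nt before the transcript end. They include the windows at the peaks and were not matched to the sites by position. GGAC, which includes GGACT, occurred in 62.0% (56.4 to 67.4), against 26.9%. AGACT occurred in 23.3% (18.8 to 28.4) against 10.3%, and GAACT in 21.1% (16.7 to 26.0) against 9.65%. The motifs were read on the transcribed strand only. Windows around the stop codon sites held GGACT in 26.8% (22.5 to 31.6) and those of coding sites in 25.2% (22.2 to 28.5). The 3′ UTR share lies within the stop codon interval and just above the upper end of the coding one, and its own interval overlaps both. AGACT was found in 23.3% of 3′ UTR windows and in 17.2% of coding windows (14.6 to 20.1), whose interval still overlaps that of the 3′ UTR.

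The share did not differ between treatments by more than the counting error. GGACT was present at 31.7% of matched sites under UV (25.8 to 38.0), 32.2% under heat shock (25.3 to 39.7), 29.6% under HGF (22.2 to 37.8) and 33.0% under IFNg (23.9 to 43.1). Sites in all 4 treatments held it in 38.2% (25.4 to 52.3) and sites of 1 treatment in 21.5% (14.8 to 29.6), with overlapping intervals. It did not follow the score in order: in 4 equal classes of the site's best score, from low to high, it was 21.5%, 25.6%, 38.5% and 29.5%. The nearest GGAC lay a median of 35 nt from the peak position, and within 20 nt at 35.1% of the sites.

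**Figure D2:**
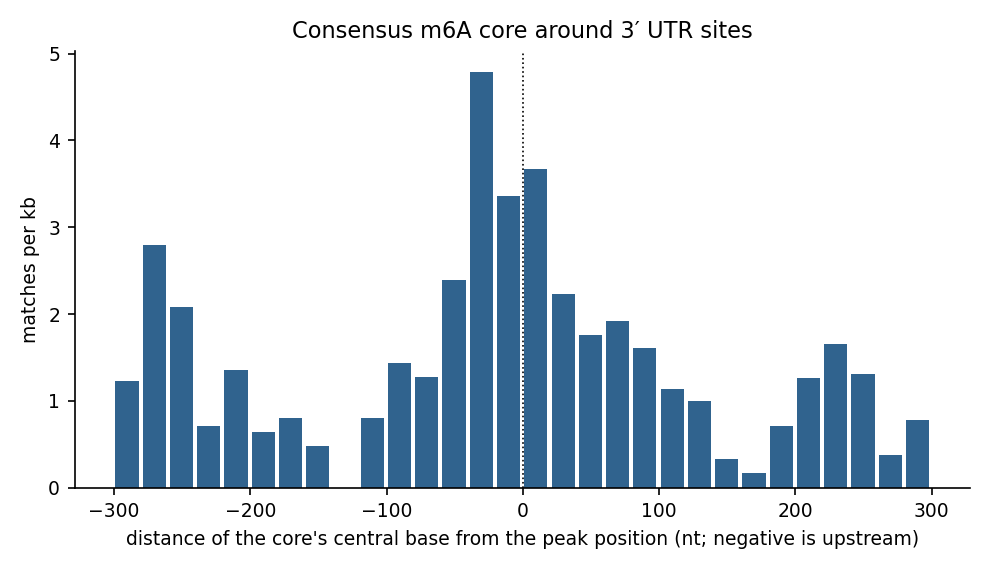
Matches of the strongest consensus core per kb (vertical axis) in 20-nt steps of distance from the peak position (horizontal axis, nt of transcript, negative is upstream) over the 313 matched 3′ UTR sites. The highest bar, 4.79 per kb, covers 40 to 21 nt upstream, and the bar just downstream of the peak reaches 3.67 per kb. Bars more than 100 nt upstream rest on 0 to 14 matches each, and bars from 100 to 299 nt downstream on 1 to 9.

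The position-resolved count of GGACT was highest from 40 to 21 nt upstream of the peak, at 4.79 matches per kb, and was 3.67 per kb in the first 20 nt downstream. Between 140 and 121 nt upstream there was no match in 6260 bases, and the class 280 to 261 nt upstream reached 2.80 per kb on 14 matches.

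Most 3′ UTR sites were listed in fewer than 4 treatments. Of the 3681 sites, 1509 were listed in 1 treatment, 880 in 2, 653 in 3 and 639 in all 4. The last group makes 17.4% (16.1 to 18.6), against 22.2% of stop codon sites (21.0 to 23.4) and 16.9% of coding sites (16.1 to 17.8). Over all sites the share was 16.5%, so the 3′ UTR share is near that background. In models at the 75th percentile or above in every treatment the 3′ UTR share was 19.8% (18.0 to 21.8), against 25.3% around the stop codon (23.5 to 27.2) and 17.2% in coding sequence (16.0 to 18.5). Stop codon sites were therefore shared more often than 3′ UTR sites in both sets, with intervals that do not overlap.

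**Figure D3:**
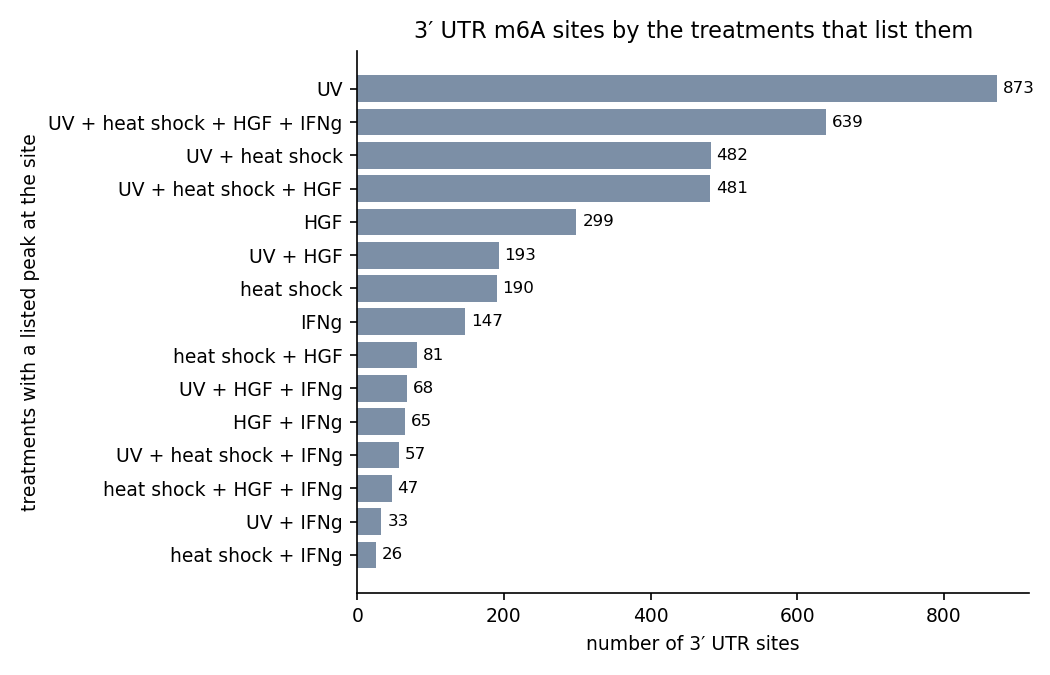
Number of 3′ UTR sites (horizontal axis) for each combination of treatments that listed a peak at the site (vertical axis), most frequent at the top. Sites listed under UV alone (873) outnumber those in all 4 treatments (639), and combinations with IFNg but not all 4 hold at most 68 sites apart from IFNg alone (147).

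Of the sites of a single treatment, 873 were from UV, 190 from heat shock, 299 from HGF and 147 from IFNg. The pair UV and heat shock held 482 sites, and UV with heat shock and HGF 481, whereas HGF and IFNg alone shared 65. Matched by position within 100 nt, 82.4% of heat shock peaks had a UV peak (80.6 to 84.1), 72.6% of HGF peaks had one (70.5 to 74.7) and 72.3% of IFNg peaks. In the other direction, 58.1% of UV peaks were matched under heat shock (56.3 to 59.97) and 27.4% under IFNg (25.7 to 29.1). IFNg peaks were matched under HGF in 74.2% (71.5 to 76.8). For coding peaks under IFNg the matched share was 67.7% in HGF (65.9 to 69.6) and 61.1% in UV (59.1 to 63.0). The IFNg peaks of the 3′ UTR were thus matched more often than its coding peaks, with intervals that do not overlap, and less often than its stop codon peaks in HGF (80.3%, 78.2 to 82.3).

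Positions of shared sites mostly lay within a fraction of the fragment length of each other, though joining within 100 nt itself keeps them close. Single linkage let some lie further apart, up to 232 nt between UV and IFNg. The median distance between the listed positions was 8 nt for UV and heat shock over 1659 shared sites and 11 nt for HGF and IFNg over 819. Between members of different pairs it was 14 to 16 nt. Within 20 nt lay 80.0% of the UV and heat shock pairs and 57.8% of the UV and IFNg pairs. A label could also change with position, as 143 of the 3681 sites were called 3′ UTR in 1 treatment and stop codon in another peak of the site.

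The score of a site went together with how widely it was shared. Under UV the median score was 3.20 at sites of UV alone, 3.90 at sites in 2 treatments, 4.46 in 3 and 5.20 in all 4. Under heat shock these medians were 2.88, 3.28, 3.76 and 4.22, under HGF 2.65, 2.98, 3.19 and 4.15, and under IFNg 2.52, 2.78, 3.05 and 3.37. The score is the authors' own enrichment score, for which the sources used here give neither formula nor log base, and no listed score was below 2.

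**Figure D4:**
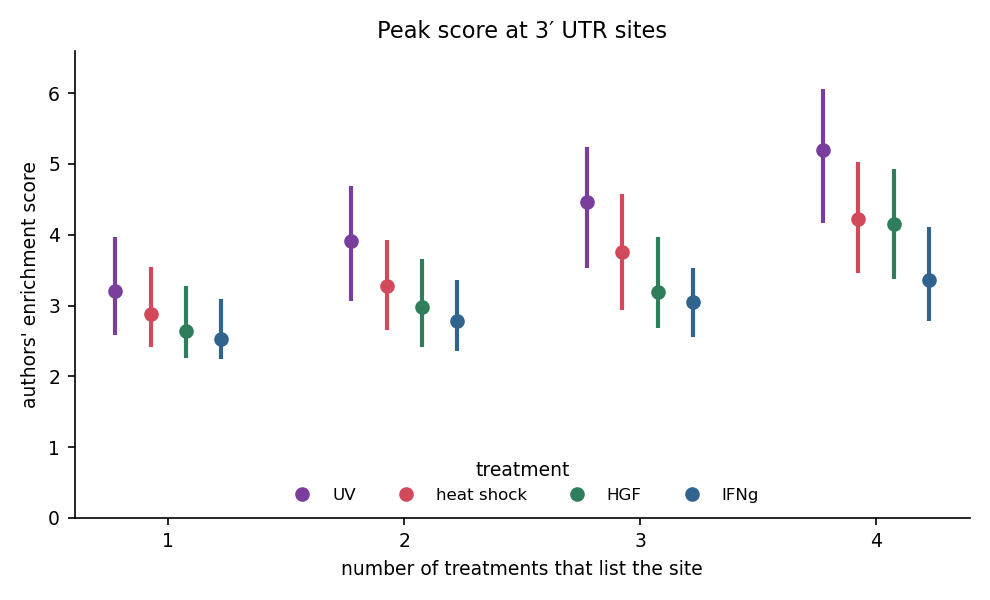
Authors' enrichment score (vertical axis) of 3′ UTR sites in each treatment (colour), by the number of treatments that listed the site (horizontal axis). Points are medians and lines run from the lower to the upper quartile; in every treatment the median rises with each further treatment, up to 5.20 under UV and 3.37 under IFNg.

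Read from the other side, with the UV sites in 4 equal classes of UV score, 5.66% of the lowest class were listed in all 4 treatments (4.07 to 7.62) and 50.8% of the highest (47.0 to 54.5). Under IFNg the shares were 39.9% (34.0 to 46.0) and 76.8% (71.3 to 81.6). Over all 3′ UTR peaks the median score was 4.01 under UV, 3.65 under heat shock, 3.35 under HGF and 3.11 under IFNg. Around the stop codon the medians were 4.41, 3.91, 3.57 and 3.16 in the same order, and in coding sequence 4.00, 3.66, 3.23 and 2.91. Levels of the score are not comparable between treatments without the depth. Treatments are therefore compared below by score rank, and the scores of single sites are printed as deposited.

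The sites that ranked high in every treatment came from genes of varied roles, and links between them were not tested. TEAD1, the DNA-binding partner of YAP in the Hippo pathway, had the highest lowest score rank. Its site at transcript position 7184 (7207 under IFNg) scored 9.52 under UV, 6.75 under heat shock, 5.95 under HGF and 5.50 under IFNg, which are ranks of 99.97, 97.7, 90.8 and 97.3. The value under UV was the highest score of any 3′ UTR peak. UGCGL1, the folding sensor that reglucosylates glycoproteins in the endoplasmic reticulum, scored 7.21 under UV, 5.94 under heat shock, 6.73 under HGF and 5.41 under IFNg. EGFR, the receptor of epidermal growth factor, scored 6.79, 6.02, 6.51 and 5.81 in that order, and was the only one of these 8 genes to hold at least percentile 96.9 of expression in all treatments. PAK2, a kinase activated by RAC and CDC42 and shown above with its AGACT core, scored 8.86, 5.81, 5.68 and 5.43. FAM20B, a kinase of proteoglycan synthesis, had the highest score of all such sites under HGF (score 8.29, rank 100). The remaining 3 were C10orf54, the immune checkpoint protein VISTA, at percentiles of only 47.2 to 60.1, the guanine exchange factor DOCK5, and the mitochondrial ribosomal protein MRPL35. Their score ranks lay between 88.2 and 98.3 in all treatments.

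Scores went together most closely for UV and heat shock, while HGF with IFNg stood only slightly above heat shock with HGF. Over the 639 3′ UTR sites in all 4 treatments the Spearman rho of the scores was 0.683 for UV and heat shock, 0.474 for HGF and IFNg, 0.463 for heat shock and HGF and 0.404 for UV and HGF. It was 0.275 between IFNg and either UV or heat shock. Stop codon sites gave 0.681 for UV and heat shock and 0.544 for HGF and IFNg. These are descriptions across sites, which share their libraries and in part their genes.

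Score ranks that stood 25 points or more away from the median of the other 3 treatments were counted among the 639 sites. Under IFNg, 146 sites (22.8%) were higher and 113 (17.7%) lower, against 20.0% and 20.4% of all sites in all 4 treatments, and the median shift was 4.31 points. Under UV there were 109 higher and 93 lower sites, with backgrounds of 15.6% and 15.8%. Under heat shock there were 82 and 104, with backgrounds of 15.5% and 15.7%, and under HGF 106 and 93, with 15.7% and 15.5%. Given as shares of the 639, the UV, heat shock and HGF counts ran from 12.8% to 17.1%, which is near these backgrounds.

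**Figure D5:**
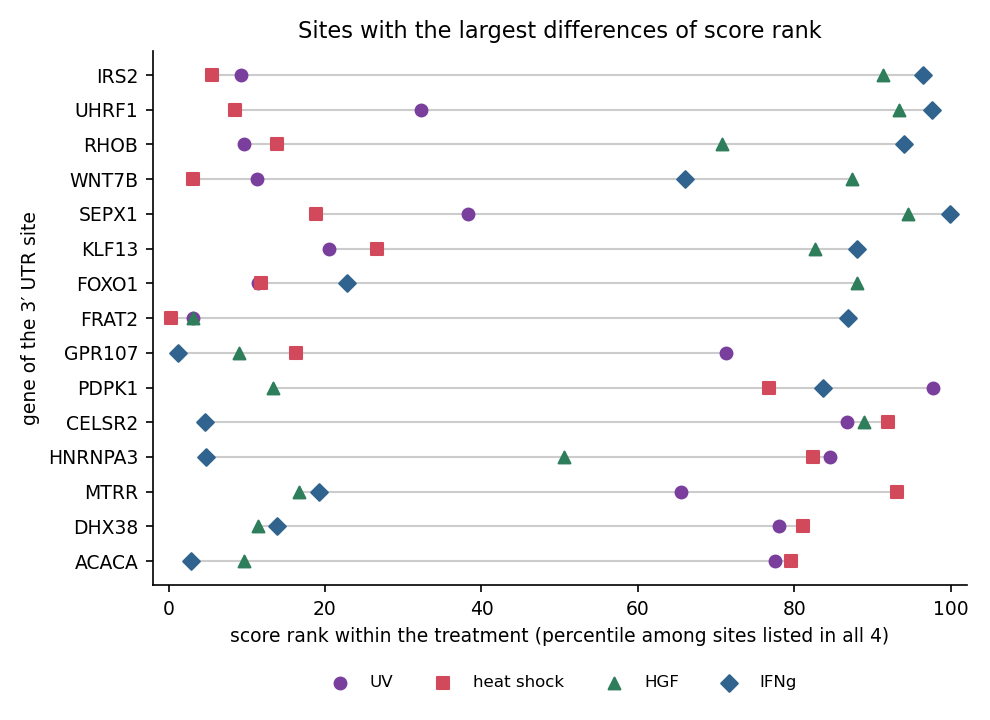
Score rank (horizontal axis, percentile within the treatment among sites listed in all 4) of the 15 3′ UTR sites with the largest gains or losses, 1 gene per row; symbols are the 4 treatments and the grey line joins the lowest and the highest. IRS2 to KLF13 (top 6 rows) rank higher under HGF and IFNg than under UV and heat shock, MTRR, DHX38 and ACACA (bottom rows) the other way; for FRAT2 the UV symbol lies under that of HGF.

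Several of the largest of these shifts, given as descriptions, separated UV and heat shock from HGF and IFNg. IRS2, the insulin receptor substrate, scored 5.99 under HGF and 5.37 under IFNg, against 3.27 under UV and 2.55 under heat shock. Its ranks were 91.3 and 96.4, against 9.23 and 5.54, and its expression percentiles 73.1 and 84.6, against 81.1 and 75.9. UHRF1, which recognises hemimethylated DNA during replication, had ranks of 93.4 under HGF and 97.6 under IFNg, against 32.2 under UV and 8.44 under heat shock, with the peak at position 3266 in every treatment. The zinc finger factor KLF13, the small GTPase RHOB, the ligand WNT7B and the methionine sulfoxide reductase SEPX1 had the same order of pairs. The opposite order was found in ACACA, the acetyl-CoA carboxylase of fatty acid synthesis, with ranks of 77.5 under UV and 79.6 under heat shock, against 9.71 under HGF and 2.84 under IFNg. DHX38, a helicase of the spliceosome, and MTRR, the methionine synthase reductase, were alike in this. The ACACA percentiles lay between 86.5 and 91.0 in all 4 treatments.

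Other shifts, some of them as large, belonged mainly to 1 treatment. FOXO1, a transcription factor under insulin control, had its highest rank under HGF, at 88.0 (score 5.76), against 11.4 under UV, 11.8 under heat shock and 22.8 under IFNg. FRAT2, a GSK3-binding protein of WNT signalling, ranked 86.8 under IFNg (score 4.60), against 3.18 under UV, 0.342 under heat shock and 3.18 under HGF. CELSR2, an adhesion receptor of the cadherin family, ranked 4.62 under IFNg (score 2.15), against 86.8 under UV, 92.0 under heat shock and 88.9 under HGF. HNRNPA3, an RNA-binding protein, was also lowest under IFNg, with a rank of 4.85. Its rank of 50.5 under HGF lay below those under UV (84.5) and heat shock (82.4) too, so this shift was not of IFNg alone. PDPK1, the kinase that activates AKT, was lowest under HGF with a rank of 13.3, against 97.7 under UV, 76.7 under heat shock and 83.6 under IFNg. GPR107, a Golgi membrane protein, ranked 71.2 under UV and at most 16.2 elsewhere.

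Some sites were listed by 1 treatment although the model ranked at the 75th percentile or above in all 4. The sites with the highest scores among them are given by treatment. Under UV they were in TRRAP, a subunit of histone acetyltransferase complexes (6.66), the mitochondrial enzyme DHTKD1 (5.76), the ubiquitin ligase RNF216 (5.63) and the elongation factor AFF1 (5.63). Under heat shock they were in PEG10 (5.79), the syntaxin STX6 (5.55), the endoplasmic reticulum protein ERLIN1 (5.39) and SPOP, a substrate adaptor of cullin 3 (5.22). Under HGF they were in C10orf46 (6.36), RRP1, which acts in ribosomal RNA processing (5.99), the Argonaute gene EIF2C2 (5.44) and the importin IPO9 (5.42). Under IFNg they were in the angiomotin-like protein AMOTL2 (5.42), the glycolytic enzyme PGK1 (4.35), PDCD6 (4.09) and the prenyl protein methyltransferase ICMT (3.98).

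Genes of signalling and regulation had 3′ UTR peaks in several treatments, listed here by role with the background of 12.3% of coding models in any treatment, or 26.0% of well ranked ones. The lists are small, and none was tested against that background. Of 37 members of receptor tyrosine kinase and MAPK-PI3K signalling in the table, 14 had a 3′ UTR peak, and 7 of the 12 well ranked ones. Among receptors, EGFR is described above, and ERBB2 scored 5.03 under UV, 2.88 under heat shock and 4.33 under HGF with none listed under IFNg. IGF1R, the IGF receptor, had 6 sites in an exon of 7470 nt, and the shared one scored 4.37 under UV, 3.24 under heat shock, 3.83 under HGF and 2.98 under IFNg. MET, the receptor of HGF itself, had a site under UV (5.76) and IFNg (3.30). None was listed at that position under heat shock or HGF, where the model ranked at percentiles 97.6 and 95.7.

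Of 32 members of TGF-beta, WNT and NOTCH signalling, 8 had a 3′ UTR peak, and 3 of the 12 well ranked ones, which is near the background. The receptor NOTCH2 scored 7.40 under UV, 4.74 under heat shock, 6.38 under HGF and 4.29 under IFNg. The WNT receptor FZD7 scored 5.41, 4.26, 4.45 and 3.76 in that order. CTNNB1, the beta-catenin of WNT signalling, scored 6.21, 4.47, 5.01 and 3.60, and SMAD3, the TGF-beta effector, 5.58, 4.07, 4.81 and 3.75 at the best of its 5 sites.

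Transcription factors and short-lived mRNAs were represented as well. Of 29 immediate early genes, 9 had a 3′ UTR peak, and 8 of the 15 well ranked ones. The AP-1 subunit FOSL2 scored 4.20 under UV, 3.17 under heat shock, 4.19 under HGF and 4.22 under IFNg. IER2 scored 3.65, 3.09, 4.71 and 4.66 in that order, and the kinase SGK1 2.13, 3.27, 2.73 and 4.47. IER5, a radiation-inducible factor, scored 2.18 under heat shock, 2.11 under HGF and 2.30 under IFNg. Of 24 liver transcription factors, 8 had a peak, and 3 of the 4 well ranked ones. Among them XBP1, the factor of the unfolded protein response, scored 4.39 under UV, 4.75 under heat shock, 3.35 under HGF and 2.03 under IFNg.

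Of 37 interferon gamma response genes, 8 had a 3′ UTR peak, and 3 of the 8 well ranked ones. The site of the peptide transporter TAP1 had a score of 3.38 under IFNg and of 4.25, 4.01 and 4.00 under UV, heat shock and HGF. Its score rank was 52.4 under IFNg, against 25.9, 38.6 and 44.7 in that order, and its expression percentile 99.3 under IFNg, against 60.1 to 71.8. SOCS3, the feedback inhibitor of JAK-STAT signalling, scored 4.38 under IFNg, a rank of 82.5, against ranks of 24.3 under UV, 18.4 under heat shock and 34.9 under HGF. CIITA (4.10) and the guanylate-binding protein GBP1 (3.62) had a site under IFNg alone. CIITA ranked at 33.5 to 45.5 in the other treatments, so rank and listing cannot be told apart there. Of 24 heat shock response genes, 20 were well ranked and HSF1 alone had a 3′ UTR peak. HSF1, the master regulator of the response, scored 4.49 under heat shock, a rank of 53.8, against ranks of 16.3 under UV, 40.2 under HGF and 33.1 under IFNg.

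Of 18 genes of the unfolded protein and integrated stress response, 7 had a 3′ UTR peak. Of the 7 well ranked ones 2 had a peak (28.6%), which is near the background of 26.0%. The ubiquitin ligase SYVN1 scored 5.73 under UV, 4.14 under heat shock, 6.43 under HGF and 4.94 under IFNg, and SEL1L, its partner in degradation, 5.10, 7.17 and 4.67 under UV, heat shock and HGF. CREB3L2, a membrane-bound transcription factor, scored 6.10 under UV, 4.36 under heat shock, 2.00 under HGF and 2.88 under IFNg. TRIB3 scored 3.14 under UV, 2.70 under HGF and 3.00 under IFNg.

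Among regulators of RNA, 4 of 20 m6A writers, erasers and readers had a 3′ UTR peak, all 4 among the 18 well ranked ones. That is 22.2% of the well ranked ones, near the background of 26.0%. ELAVL1, which binds AU-rich elements, scored 4.05 under UV, 3.78 under heat shock and 3.37 under HGF. The writer subunits RBM15B (3.03 under UV and 3.01 under HGF) and RBM15 (2.70 under HGF) and the reader IGF2BP3 (2.17 under UV) were listed in fewer treatments. Of 21 microRNA pathway and deadenylation genes, 7 had a peak, and 5 of the 11 well ranked ones. The CCR4-NOT subunit CNOT2 scored 5.48 under UV, 5.03 under heat shock, 4.53 under HGF and 3.54 under IFNg. DGCR8, which processes primary microRNAs, scored 5.92, 3.78, 3.64 and 3.37 in that order, and the Argonaute partner TNRC6A 4.71, 4.33, 4.69 and 2.17. PAN3, of the PAN2-PAN3 deadenylase, scored 4.42, 4.01 and 3.91 under UV, heat shock and HGF. Of 17 genes of 3′ end processing, 2 had a peak, both among the 16 well ranked ones: PABPN1, the nuclear poly(A)-binding protein, and CPSF4. The share of the well ranked ones, 12.5%, lies below the background of 26.0%.

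Of 30 chromatin modifiers, 11 had a 3′ UTR peak, and 9 of the 23 well ranked ones. BMI1, a Polycomb subunit, scored 5.59 under UV, 4.93 under heat shock, 3.67 under HGF and 3.45 under IFNg, and the 5-methylcytosine oxidase TET3 6.02, 5.19, 5.35 and 2.52. The acetyltransferase CREBBP and the methyltransferase EHMT1 were listed under UV (4.67 and 4.66) and HGF (4.14 and 4.05) only. Of 35 ubiquitin ligases and deubiquitinases, 7 had a peak, and 5 of the 18 well ranked ones, which is near the background. RNF169, printed above, scored 6.45 under UV, 5.84 under heat shock, 5.79 under HGF and 5.57 under IFNg. USP24 scored 7.44 under UV, 6.34 under heat shock and 3.82 under IFNg. Of 32 genes of the cell cycle and the p53 pathway, 8 had a peak, and 5 of the 16 well ranked ones (31.25%), which is near the background. GADD45B alone had one in all 4 treatments (5.25, 4.85, 4.31 and 5.41 under UV, heat shock, HGF and IFNg).

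Cytosolic ribosomal protein and oxidative phosphorylation genes had few 3′ UTR peaks at high rank. No 3′ UTR peak of a matched model lay nearer than 200 nt past the coding end. Genes with a shorter 3′ UTR could therefore not have one, and 3′ UTR lengths were not compared between these lists. Of 47 cytosolic ribosomal proteins, 44 were well ranked and only RPL13A had a 3′ UTR peak, which scored 2.60 under UV. Of 38 oxidative phosphorylation genes, 32 were well ranked and 0 had a 3′ UTR peak, and 14 had no listed peak of any kind. Of 30 secreted liver proteins, 0 had any listed peak, but only 1 of them was well ranked. Glycolysis was unlike these, with 8 of 21 genes, and 6 of 14 well ranked ones. PFKFB3, which makes the activator of phosphofructokinase, scored 6.69 under UV, 4.92 under heat shock and 4.09 under HGF. SLC2A1 scored 3.87 under heat shock, 2.68 under HGF and 3.97 under IFNg, and HK2, a hexokinase, 4.32 under UV and 2.67 under heat shock. TPI1, LDHA, ENO1 and PGK1, which ranked between percentiles 93.2 and 99.9 in all treatments, were each listed in 1 treatment, between 2.42 and 4.35. Of 24 genes of cholesterol synthesis and sterol regulation, 6 had a peak, and 4 of the 11 well ranked ones.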

How the data were processed

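The series held 8 libraries of cells labelled HepG2, an m6A antibody and an input library for each of 4 treatments, sequenced on the Genome Analyzer IIx per the labels' protocols. The authors deposited a table of gene models with an expression quantile (a fraction from 0 to 1, written here as a percentile) and, for each peak, its transcript position, exon, segment and enrichment score, per the file headers. The count of peaks per model is the authors' as deposited, and equals the length of the lists read here. The sources used here give no score formula, peak caller, aligner or genome build; the coordinates are not those of GRCh38. The columns used hold no read counts, so depth is unknown and limits every absence.

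Segment labels were used as deposited, and 950 of the 37501 peaks had none. Peaks of 1 model within 100 nt were joined by single linkage. Score ranks were percentiles among the 2925 sites listed in all 4 treatments. Intervals are exact Clopper-Pearson 95% intervals. Models were matched to GENCODE 29 transcripts by symbol (RefSeq synonyms included), strand, genomic span, and the exon number, exon length and position of every peak: of 7952 models with a peak, 858 had a transcript of the same span, 692 also the same exons and 663 a single structure. Symbols were recognised for 2374 of the 2452 models with a 3′ UTR peak.

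The named genes were the 8 sites with the highest lowest score rank, the 5 genes with most sites (the fifth place was tied), per treatment the 3 sites that gained and the 3 that lost most score rank, the 4 highest-scoring sites of each single treatment in well ranked models, the 4 longest exons and up to 4 members of each of 18 gene lists, with unrecognised symbols left out; genes named beyond that were chosen after their values were seen. Not every gene under the rule is reported here. Where a symbol had several models, the one with the highest mean percentile stood for it. The members, lists and tests were chosen with earlier results of these data known. The alternatives were other joining and matching distances, equal numbers of peaks, well ranked models, 1 model per symbol and other rank steps. The methods were tested on simulated data. The tools were SciPy 1.17.1, NumPy 2.4.6, pandas 2.3.3 and matplotlib 3.10.9 in Python 3.11.15.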

Additional observations from a re-analysis of the deposited data

How the results depend on the processing

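With 1 library per group no replicate could be left out. No paired analysis was possible because each group held 1 library and no test was made. Of 91 alternative values for 46 results, 37 stayed within 1.5 times the count or within the counting interval, among them all 18 gene list counts with any model of the symbol. At scores at or above 3.61, the median of all listed peaks, the 3′ UTR peaks numbered 1681 under UV, 1012 under heat shock, 754 under HGF and 324 under IFNg. With the same number of highest-scoring peaks in every treatment, the 3′ UTR share was 20.03% under UV, 19.61% under heat shock, 20.84% under HGF and 20.43% under IFNg, so that HGF and not UV had the highest share, and the median scores were 5.31 under UV, 4.46 under heat shock and 4.03 under HGF. In models that had peaks in every treatment the 3′ UTR share was 22.6% under UV, 21.8% under heat shock and 21.8% under HGF. The share of sites in all 4 treatments was 15.1% when joined within 50 nt, 19.6% within 200 nt and 19.8% in well ranked models. Matched within 50 nt, the shares were 80.1% (heat shock in UV), 66.4% (HGF in UV), 65.2% (IFNg in UV), 70.0% (IFNg in HGF) and 24.8% (UV in IFNg). Within 200 nt they were 77.0% (HGF in UV) and 77.1% (IFNg in HGF). In well ranked models they were 79.2% (heat shock in UV), 70.4% (HGF in UV), 68.5% (IFNg in UV), 61.3% (UV in heat shock) and 33.4% (UV in IFNg). The median exon length was 2347 nt for peaks at or above the median score. Median scores in well ranked models were 3.77 under UV, 3.54 under heat shock, 3.19 under HGF and 2.98 under IFNg. Higher and lower score ranks at 15 points numbered 167 and 170 under UV, 138 and 195 under heat shock and 178 and 166 under HGF. At 40 points they were 42 and 40 under UV, 28 and 38 under heat shock, 44 and 40 under HGF, and 85 and 54 under IFNg. Against every one of the other 3 treatments they were 34 and 19, 20 and 12, 24 and 24, and 59 and 43 in that order. The causes were not tested.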
